A study of Mus musculus with 9 samples.

Results

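The bacterial sensing receptors and adaptors of the mouse colon were followed in 10 genes taken by symbol from the 22262 genes counted in at least 1 mouse, namely the Toll-like receptors Tlr2, Tlr3, Tlr4 and Tlr5, the lipopolysaccharide co-receptor Cd14, the adaptors Myd88 and Ticam1, and the Nod-like receptors Nod1, Nod2 and Nlrp6. Gene expression was measured by 3′ RNA-sequencing of a rinsed piece of upper colon from 4 wild-type (WT) C57BL/6N mice kept in a standard environment (WT_SE, mice 1, 2, 3 and 5) and 5 WT mice kept in an enriched environment (WT_EE, mice 1 to 5). All mice were females of 12 months of age and lived in their environment from weaning, the WT_SE mice in small groups in standard cages and the WT_EE mice in a larger group in a bigger cage with running wheels, tunnels, extra nesting material and objects that were moved regularly. The comparison asks whether long-term enrichment changed the colon of WT mice, and the environment, the number of cage mates and the cage itself cannot be told apart, because the labels do not say which mice shared a cage. The study's mice of another genotype were not analysed here.

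Toll-like receptors sit in the membranes of epithelial and immune cells and bind conserved molecules of microbes. Once bound, they recruit adaptor proteins that lead to NF-kB and interferon regulatory factors, whereas the cytosolic Nod1 and Nod2 signal through the kinase Ripk2 and Nlrp6 can assemble an inflammasome that matures Il1b and Il18. In the colon these proteins act in a tissue that faces a dense bacterial community. Tlr3 recognises double-stranded RNA, mostly of viral origin, and is thus the member that fits the name of a bacterial sensor least.

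Each library held between 295535 and 454043 deduplicated counts, a shallow depth at which a floor of 3 counts corresponded to 6.61 to 10.2 counts-per-million (CPM). Levels are given as CPM after TMM normalization. A 3′ library is meant to count 1 tag per transcript molecule, so the levels were not divided by transcript length. The most counted gene of a library had 1177 to 1393 counts, while Acta2 had 112 to 210 and Epcam 100 to 182 per mouse. Whether deduplication also merged separate molecules of abundant genes, which would compress their CPM and fold changes, was not tested. The epithelial markers were present in every mouse (summed level 1730 to 2317 CPM over 6 genes, 0 called, median log2 fold change 0.06), and so were those of smooth muscle. The neutrophil genes S100a8, S100a9 and Cxcr2 had no count in any mouse, and neither did the B cell gene Cd79a or the plasma cell gene Mzb1. The library names of WT_SE 1 and WT_SE 3 end in L3 and those of the other 7 mice, all WT_EE mice among them, in L2, an ending that the labels do not explain and that is partly confounded with the environment. Values from whole tissue cannot tell fewer cells of a type from less RNA per cell.

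The upstream sequences of 4 members are shown because these genes mark both ends of the range of levels (Nlrp6 at the top, Tlr5 and Nod2 at the bottom) and, for Tlr2, the largest spread among mice relative to counting error. They are RefSeq sequences on GRCm38.p6, written 5′ to 3′ on the strand of the gene and limited to bases before the gene start that lie outside annotated exons, with matches to the searched motifs in capitals.
Nlrp6, chr7:140920652-140920901, plus strand: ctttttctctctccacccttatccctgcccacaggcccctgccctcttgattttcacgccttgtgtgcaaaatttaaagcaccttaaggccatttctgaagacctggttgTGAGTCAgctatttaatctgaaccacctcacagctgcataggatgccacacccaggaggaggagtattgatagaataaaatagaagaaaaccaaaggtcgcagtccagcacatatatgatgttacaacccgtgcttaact
Tlr2, chr3:83841768-83841858, minus strand: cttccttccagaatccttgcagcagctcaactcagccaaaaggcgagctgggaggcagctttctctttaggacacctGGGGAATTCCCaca
Tlr5, chr1:182954538-182954787, plus strand: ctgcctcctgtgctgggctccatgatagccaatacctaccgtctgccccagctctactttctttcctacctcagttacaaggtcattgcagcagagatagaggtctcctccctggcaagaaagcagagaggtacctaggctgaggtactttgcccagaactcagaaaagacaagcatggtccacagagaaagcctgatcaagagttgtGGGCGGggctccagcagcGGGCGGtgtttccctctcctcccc
Nod2, chr8:88647097-88647314, plus strand: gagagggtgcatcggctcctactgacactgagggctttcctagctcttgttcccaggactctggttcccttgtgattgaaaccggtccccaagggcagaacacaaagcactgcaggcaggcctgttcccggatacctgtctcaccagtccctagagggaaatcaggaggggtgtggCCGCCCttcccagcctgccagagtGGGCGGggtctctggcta
The motifs searched on both strands were the GC box GGGCGG, the AP-1 site TGANTCA, the TATA box TATAAA, the PU.1 site GAGGAAGT, the cAMP response element TGACGTCA and the usual kB consensus of NF-kB, and matches to different motifs did not overlap in these 4 sequences. Nlrp6 held 1 AP-1 match, which 6.75% of 32851 promoter windows of the same length and position also held. Tlr5 held 2 GC boxes and Nod2 held 2, a motif present in 32.7% and 28.2% of the windows matched to each. The Tlr2 stretch of 91 bases held kB matches at 2 neighbouring positions that overlap each other, where 2.26% of the windows matched to it held 1 or more, and no match to the other 5 motifs. The kB consensus replaced a narrower form after the sequences had been seen. A match describes the letters of the window and not a site in use.

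In the annotated genome (GRCm38, GENCODE), 8 of the 10 genes overlapped no other gene. Myd88 (chr9:119335934-119341411, minus strand) overlapped Slc22a14 on its own strand, which had 0 counts in all mice, and Acaa1a on the other strand, which had 313, and since the strand setting of the counting was not given in the sources used here, reads of Myd88 and Acaa1a where they overlap may not have been told apart. Tlr3 (chr8:45395665-45411080, minus strand) overlapped an antisense gene, Gm45542, with 0 counts. The intervals of 7 further members were chr3:83836272-83841767 for Tlr2, chr4:66827584-66930284 for Tlr4, chr1:182954788-182976044 for Tlr5, chr17:56269319-56276786 for Ticam1, chr6:54923949-54972612 for Nod1, chr8:88647315-88688474 for Nod2 and chr7:140920902-140929192 for Nlrp6.

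All 10 genes were detected, over a range from 169 CPM for Nlrp6 to 5.24 CPM for Nod2 as the mean over the 9 mice. Nlrp6 was followed by Myd88 (79.2 CPM), Tlr3 (57.3 CPM), Ticam1 (56.1 CPM), Tlr4 (32.02 CPM), Tlr2 (28.4 CPM), Nod1 (23.9 CPM), Cd14 (19.3 CPM) and Tlr5 (6.18 CPM). By mean level, the shared adaptor Myd88 stood above every Toll-like receptor and Ticam1 above all but Tlr3. However, Tlr3 exceeded Ticam1 in only 3 of 9 mice, and their mean order swapped without WT_SE 3, WT_EE 3 or WT_EE 5. Neighbours in the order of mean level over the 9 mice were then compared within each mouse. Of these pairs, 4 of 9 differed beyond their spread in an exact sign-flip permutation test (two-sided, on log2(CPM + 1), Benjamini-Hochberg adjusted over the 9 pairs). The order came from the same mice, so the pairs and their directions were not set in advance. Nlrp6 exceeded Myd88 in 9 of 9 mice (exact permutation test, adjusted p = 0.0234). Myd88 exceeded Tlr3 in 7 of 9 mice (exact permutation test, adjusted p = 0.0352). Ticam1 exceeded Tlr4, and Cd14 exceeded Tlr5, each in 8 of 9 mice (exact permutation test, adjusted p = 0.0234 for both). The neighbours Tlr3 and Ticam1 did not differ beyond their spread, nor did Tlr4, Tlr2, Nod1 and Cd14 in their neighbouring pairs, nor Tlr5 and Nod2, where the adjusted p ran from 0.422 to 0.906 in the exact permutation test.

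**Figure D1:**
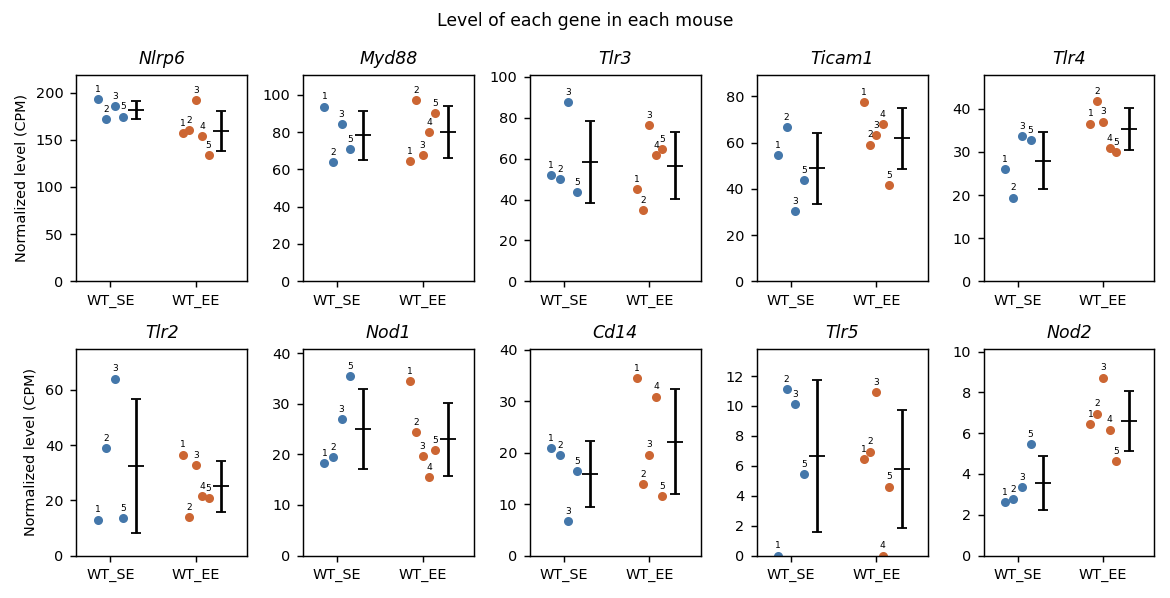
TMM-normalized level (CPM, linear axes from 0) of each of the 10 genes in the 4 WT_SE and 5 WT_EE mice, numbered by mouse, with the group mean and SD as bars. Panels run from the highest mean (Nlrp6, 169 CPM) to the lowest (Nod2, 5.24 CPM), and the WT_SE and WT_EE points overlap in every panel.

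None of the 10 genes was called between WT_EE and WT_SE in edgeR's quasi-likelihood test at an unadjusted p under 0.05, against 1334 of 17441 genes tested (7.65%; 4.31% higher and 3.34% lower in WT_EE, so that 56.3% of the calls were higher, or 45.0% with upper quartile scaling). None was called after Benjamini-Hochberg adjustment either, against 7 genes or 0.0401%. DESeq2, limma-voom and edgeR's likelihood ratio test also called 0 of the members they tested at an unadjusted p under 0.05. In WT_EE, 6 members had a positive and 4 a negative log2 fold change, with a median of 0.01, while the median of all genes tested was also 0.01 when rounded to 2 decimals. The values of the groups overlapped for all 10 members, whereas they did not overlap for 2.58% of all genes tested. With 4 against 5 mice, an exact permutation test cannot go below p = 0.00794.

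Among the receptors at the cell surface, Tlr4, which signals the lipid A part of lipopolysaccharide, was counted 10, 7, 10 and 12 times in WT_SE mice 1, 2, 3 and 5 and 17, 12, 17, 10 and 13 times in WT_EE mice 1 to 5. The 3 highest CPM values belonged to WT_EE mice, yet WT_EE 4 and WT_EE 5 lay below WT_SE 3 and WT_SE 5. The level of Tlr4 was 28.0 ± 6.64 CPM in WT_SE (SD, n = 4) and 35.3 ± 4.84 CPM in WT_EE (SD, n = 5), a log2 fold change of 0.33 with a standard error of 0.30 (edgeR, Benjamini-Hochberg adjusted p = 0.839; exact permutation test, two-sided, p = 0.0952). Its 95% interval ran from −0.28 to 0.95, that is from a 1.21-fold lower to a 1.93-fold higher level in WT_EE.

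Cd14, which hands lipopolysaccharide to Tlr4, had 8, 7, 2 and 6 counts in WT_SE mice 1, 2, 3 and 5 and 16, 4, 9, 10 and 5 counts in WT_EE mice 1 to 5. WT_EE 1 and WT_EE 4 were the highest and WT_SE 3 the lowest, and the remaining mice of the groups were interleaved. The means were 15.8 ± 6.35 CPM in WT_SE (SD, n = 4) and 22.1 ± 10.2 CPM in WT_EE (SD, n = 5), with a log2 fold change of 0.45, a 95% interval of −0.39 to 1.29 and an edgeR adjusted p of 0.848. The further partners of lipopolysaccharide sensing were near the floor. Ly96, the subunit of Tlr4 that binds lipopolysaccharide, ranged between 0 and 4 counts among WT_SE mice and between 1 and 6 among WT_EE mice, and Lbp, the serum protein that extracts lipopolysaccharide, had 0 to 3 counts in any mouse.

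Tlr2, the receptor of bacterial lipoproteins, varied most relative to counting error. It was counted 5, 14, 19 and 5 times in WT_SE mice 1, 2, 3 and 5 and 17, 4, 15, 7 and 9 times in WT_EE mice 1 to 5, which corresponded to 13.02, 38.9, 64.1 and 13.6 CPM and to 36.6, 13.9, 32.7, 21.6 and 20.8 CPM. Both groups held low and high mice, and the WT_SE group held both the highest and the lowest value. The level was 32.4 ± 24.3 CPM in WT_SE (SD, n = 4) and 25.1 ± 9.31 CPM in WT_EE (SD, n = 5), the log2 fold change being −0.25 (standard error 0.39; edgeR adjusted p = 0.918) and a 95% interval of −1.04 to 0.53. Without WT_SE 3 the log2 fold change of Tlr2 turned to 0.27. Tlr1, which pairs with Tlr2, ranged between 10 and 19 counts among WT_SE mice and between 5 and 21 among WT_EE mice (log2 fold change −0.30, edgeR adjusted p = 0.857).

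Tlr5, the flagellin receptor, was close to the detection limit, with 0, 4, 3 and 2 counts in WT_SE mice 1, 2, 3 and 5 and 3, 2, 5, 0 and 2 counts in WT_EE mice 1 to 5. Only WT_SE 2 and WT_EE 3 exceeded the floor of 3 counts, and the level was 6.67 ± 5.08 CPM in WT_SE (SD, n = 4) against 5.79 ± 3.96 CPM in WT_EE (SD, n = 5). A difference in Tlr5 was not detectable at this depth, and its 95% interval on the log2 scale reached from −1.60 to 1.42. Tlr3, the endosomal receptor of double-stranded RNA, had 20, 18, 26 and 16 counts in WT_SE mice 1, 2, 3 and 5 and 21, 10, 35, 20 and 28 counts in WT_EE mice 1 to 5. The highest and the second highest CPM of Tlr3 came from WT_SE 3 and WT_EE 3, one in each environment. Its means of 58.3 ± 19.9 CPM (SD, n = 4) and 56.5 ± 16.5 CPM (SD, n = 5) gave a log2 fold change of 0.00 (95% interval −0.49 to 0.50; edgeR adjusted p = 0.999).

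Myd88, the adaptor of all these Toll-like receptors except Tlr3, had 36, 23, 25 and 26 counts in WT_SE mice 1, 2, 3 and 5 and 30, 28, 31, 26 and 39 counts in WT_EE mice 1 to 5. The highest CPM belonged to WT_EE 2 and the next to WT_SE 1, and the lowest values to WT_SE 2 and WT_EE 1. The level of Myd88 was 78.2 ± 13.4 CPM in WT_SE (SD, n = 4) and 79.96 ± 14.1 CPM in WT_EE (SD, n = 5), the log2 fold change being 0.01 (standard error 0.21; edgeR adjusted p = 0.992), and the 95% interval ran from a 1.33-fold lower to a 1.35-fold higher level in WT_EE.

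Ticam1 (also known as TRIF), the adaptor of Tlr3 and of endosomal Tlr4, had 21, 24, 9 and 16 counts in WT_SE mice 1, 2, 3 and 5 and 36, 17, 29, 22 and 18 counts in WT_EE mice 1 to 5. In CPM, WT_SE 3 was lowest and WT_EE 1 highest, WT_SE 2 lay above 3 of the 5 WT_EE mice, and WT_EE 5 lay below 3 of the 4 WT_SE mice. The means of 48.8 ± 15.5 CPM (SD, n = 4) and 61.9 ± 13.3 CPM (SD, n = 5) gave a log2 fold change of 0.32 (standard error 0.25, 95% interval −0.19 to 0.83; edgeR adjusted p = 0.813). Of the bridging adaptors, Tirap, which links Myd88 to Tlr2 and Tlr4, was measured at 37.3 ± 6.50 CPM in WT_SE (SD, n = 4) and 48.6 ± 10.1 CPM in WT_EE (SD, n = 5) with a log2 fold change of 0.36 (edgeR adjusted p = 0.785). Ticam2, which links Ticam1 to Tlr4, had at most 3 counts in any mouse.

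Nlrp6, the most abundant member, had 74, 62, 55 and 64 counts in WT_SE mice 1, 2, 3 and 5 and 73, 46, 88, 50 and 58 counts in WT_EE mice 1 to 5. After normalization 4 of the 5 WT_EE mice lay below every WT_SE mouse, whereas WT_EE 3 (192 CPM) lay next to the highest, WT_SE 1 (193 CPM). The level of Nlrp6 was 181 ± 9.62 CPM in WT_SE (SD, n = 4) and 159 ± 20.8 CPM in WT_EE (SD, n = 5), the log2 fold change being −0.18 (standard error 0.15; edgeR adjusted p = 0.819; exact permutation test, two-sided, p = 0.103). The 95% interval ran from −0.48 to 0.12, that is from a 1.40-fold lower to a 1.08-fold higher level in WT_EE, the narrowest interval of the 10 genes.

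Nod1, the sensor of diaminopimelic acid containing peptidoglycan, had 7, 7, 8 and 13 counts in WT_SE mice 1, 2, 3 and 5 and 16, 7, 9, 5 and 9 counts in WT_EE mice 1 to 5. The top CPM values were those of WT_SE 5 and WT_EE 1 and the groups were interleaved below them. Its level was 25.02 ± 7.96 CPM in WT_SE (SD, n = 4) and 22.9 ± 7.19 CPM in WT_EE (SD, n = 5), a log2 fold change of −0.10 (95% interval −0.82 to 0.62; edgeR adjusted p = 0.965). Nod2, the sensor of muramyl dipeptide, had 1, 1, 1 and 2 counts in WT_SE mice 1, 2, 3 and 5 and 3, 2, 4, 2 and 2 counts in WT_EE mice 1 to 5. All WT_SE mice and 4 of the 5 WT_EE mice thus did not exceed the floor, so the fold change of Nod2 is not read as a rise. The exact permutation test of the CPM of Nod2 gave p = 0.0238 (two-sided, unadjusted, 1 of 10 such tests and the one member under 0.05), whereas edgeR's quasi-likelihood test of the counts gave p = 0.266 and an adjusted p of 0.835, and the permutation p rose above 0.05 in 7 of 12 alternatives.

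**Figure D2:**
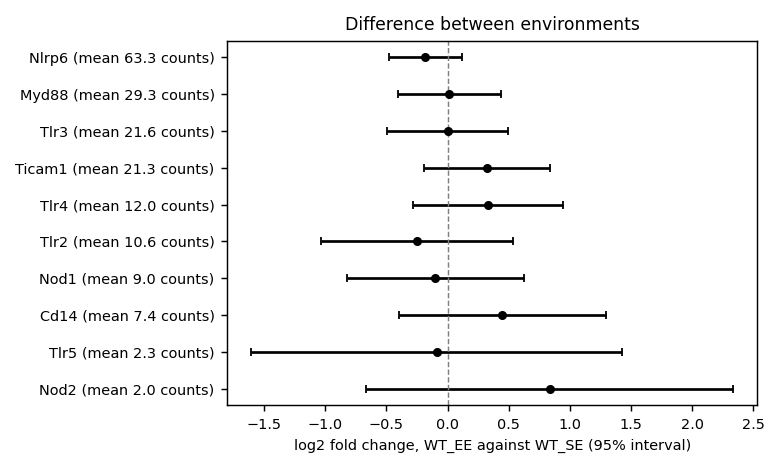
Log2 fold change of each of the 10 genes in WT_EE (n = 5) against WT_SE (n = 4) from the edgeR fit, with its 95% interval and the mean count per mouse beside the gene name. Every interval includes 0, and the intervals widen from Nlrp6 (−0.48 to 0.12) to Nod2 and Tlr5, the genes with the fewest counts.

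The spread among mice of a group was compared with what counting alone would give. The coefficient of variation within groups was 10.03% for Nlrp6, where counting alone gave 12.8%, and 17.4% against 18.6% for Myd88. It was 25.4% against 22.1% for Ticam1 and 31.6% against 33.9% for Nod1. Nod2 (26.9% against 71.9%) and Tlr4 (17.7% against 29.2%) varied less among mice than counting alone would give. Tlr5 had the largest spread of all, 72.5%, but counting alone gave 66.7%, and Cd14 had 45.3% against 37.6%. Tlr2 exceeded counting error by the largest ratio, 1.97, with 61.4% among mice against 31.2% from counting, and Tlr3 came next with 31.4% against 21.9%.

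**Figure D3:**
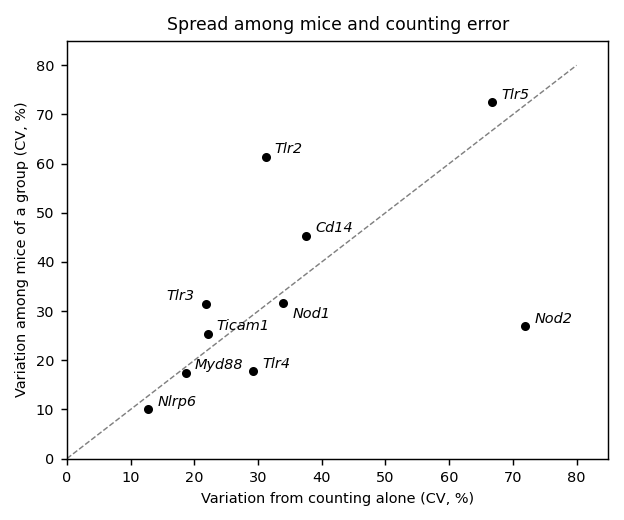
Coefficient of variation of the CPM among mice of the same group (vertical axis, %) against that from counting error alone (horizontal axis, %) for the 10 genes, with the line of equality dashed. Tlr2, at 61.4% against 31.2%, lies farthest above the line.

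The spread of Tlr2 moved with the level of Slc10a2, an apical bile acid transporter listed here as a marker of the proximal end of the colon. Slc10a2 reached 230 to 371 CPM in WT_SE 2, WT_SE 3, WT_EE 1 and WT_EE 3 and 10.4 to 67.7 CPM in the other 5 mice. The same 4 mice had the 4 highest levels of Tlr2, at 32.7 to 64.1 CPM, and the other 5 had 13.02 to 21.6 CPM. Each environment contributed 2 of these 4 mice, and the division was the same when the counts were scaled by library size alone. No other member had its 4 highest values in these 4 mice. Tlr4, Tlr5 and Ticam1 shared 3 of them, and Tlr3, Cd14, Nod1, Nod2, Myd88 and Nlrp6 shared 1 or 2 after TMM normalization. The antibacterial lectins Reg3b and Reg3g also had their 4 highest values there. The position genes of the Hox clusters, listed as distal, did not give 1 order of the mice: Hoxd10 also had its 4 highest values in these 4 mice (10.8 to 61.1 CPM against 0 to 5.21 CPM in the others), whereas Hoxb13 had 0 counts in WT_SE 2, WT_SE 3 and WT_EE 1, 45.8 CPM in WT_EE 3 and 10.4 to 156 CPM in the others. The share of all genes tested that divided the mice in the same way was not counted. The division can therefore not be called particular to Tlr2, which was looked at here for its large spread. Whether the pieces came from different positions was not tested. Because the Slc10a2 values fell into separate clusters of 4 and 5 mice, the relation was not tested as a correlation. With the log2 level of Slc10a2 as a covariate, the log2 fold change of Tlr2 between environments was 0.15 in place of −0.25 (edgeR unadjusted p = 0.671), and 0 of the 10 members were called.

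**Figure D4:**
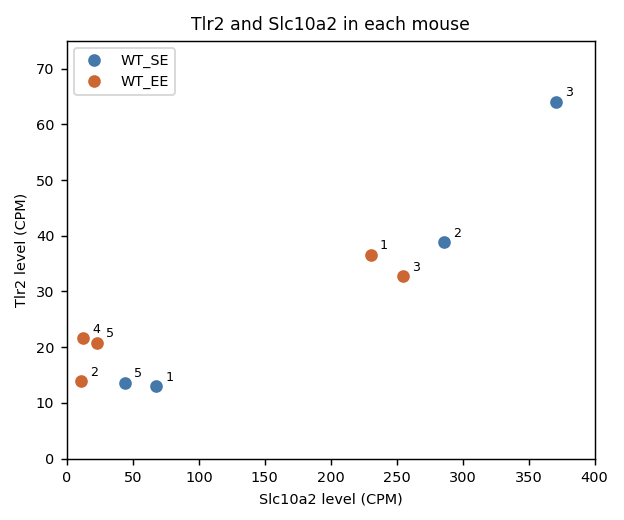
Level of Tlr2 against that of Slc10a2 (both CPM, linear axes from 0) in each of the 9 mice, numbered by mouse and coloured by environment. The 4 mice at 230 to 371 CPM of Slc10a2, 2 from each environment, are the 4 with the most Tlr2 (32.7 to 64.1 CPM).

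The genes around these sensors were examined in lists covering 99 pathway genes, of which 82 were tested and 11 (13.4%, against 7.65% of all genes tested) called at an unadjusted p under 0.05, 6 higher and 5 lower in WT_EE, with a median log2 fold change of 0.06 over the 82. The single lists are small, with 4 to 18 genes tested, and their counts are to be read against that share. The lists were chosen with earlier results of these data known. The study itself had named Ptgs2 and Nos2 in its pathway results for these 2 groups. The higher share among the pathway genes is thus a description and no test of the pathway. A single one of the 11 genes, Ptgs2, passed the adjusted threshold (edgeR adjusted p = 0.0249). The exact permutation test of the CPM (two-sided, unadjusted) gave p = 0.103 for Casp1, 0.119 for Il1b, 0.167 for Irf7 and 0.222 for Reg3g. For the other called genes that test gave p from 0.00794 to 0.0476. Of the other Toll-like receptors 0 of 4 tested were called (median −0.11), with Tlr12 at a log2 fold change of −0.90 and an adjusted p of 0.699 in edgeR. Of the co-receptors and chaperones 0 of 9 were called (median 0.10), among them Unc93b1, which escorts endosomal Toll-like receptors (0.11, adjusted p = 0.955 in edgeR), and Hsp90b1, the chaperone of Toll-like receptors (0.07, adjusted p = 0.953 in edgeR).

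Of the adaptors and kinases 2 of 18 were called, both higher in WT_EE (median 0.17). Ripk2, the kinase of Nod1 and Nod2, had 12, 11, 5 and 9 counts in WT_SE mice 1, 2, 3 and 5 and 17, 14, 18, 15 and 20 counts in WT_EE mice 1 to 5. Every WT_EE mouse lay above every WT_SE mouse. Ripk2 rose from 25.8 ± 6.67 CPM in WT_SE (SD, n = 4) to 43.4 ± 5.17 CPM in WT_EE (SD, n = 5), a log2 fold change of 0.71 with a standard error of 0.29 (edgeR unadjusted p = 0.0210, adjusted p = 0.520; p = 0.00794 in a two-sided exact permutation test, which cannot give less). The call of Ripk2 was lost under 5 of 24 alternatives, with unadjusted p-values up to 0.0934 (edgeR with a term for the ending of the library name), and one of them was the removal of WT_SE 3 (log2 fold change 0.58; edgeR unadjusted p = 0.0622). The receptors that signal through it, Nod1 and Nod2, were not called. Birc3, a ubiquitin ligase of the same complex, was also called (log2 fold change 0.63; edgeR unadjusted p = 0.0317, adjusted p = 0.580), but fell to 0.38 without WT_EE 2 (edgeR unadjusted p = 0.172) and was not called without WT_SE 2 or WT_SE 5 either.

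Of the inhibitors 2 of 11 were called, again both higher in WT_EE (median 0.30). Tnfaip3 (A20), a deubiquitinase induced by NF-kB that ends its activation, had 6, 5, 1 and 5 counts in WT_SE mice 1, 2, 3 and 5 and 13, 8, 9, 11 and 9 counts in WT_EE mice 1 to 5, with no overlap of the groups in CPM (log2 fold change 1.07; edgeR unadjusted p = 0.0135, adjusted p = 0.460). Nfkbib, an inhibitor that holds NF-kB in the cytosol, likewise rose without overlap, from 50.0 ± 8.06 CPM (SD, n = 4) to 75.9 ± 14.4 CPM (SD, n = 5) (log2 fold change 0.59; edgeR unadjusted p = 0.0140, adjusted p = 0.465). The call of Nfkbib was lost without WT_EE 5 (log2 fold change 0.48; edgeR unadjusted p = 0.0569), and the calls of both inhibitors were lost with a term for the library-name ending (log2 fold changes 0.88 and 0.54). Of the NF-kB and interferon regulatory factors 1 of 11 was called, Irf7, the regulator of type I interferon (log2 fold change −0.33, edgeR unadjusted p = 0.0422, adjusted p = 0.628; median of the list 0.06). Its sign turned to 0.01 when the ending of the library name was added to the model, and its call was lost without WT_SE 1, WT_SE 3 (log2 fold change −0.19), WT_EE 1, WT_EE 3 or WT_EE 4.

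Of the other Nod-like receptors and inflammasome genes 3 of 17 were called, all lower in WT_EE, with a median of −0.19 and 12 of 17 log2 fold changes below 0. Aim2, a sensor of cytosolic DNA, fell from 133 ± 27.1 CPM in WT_SE (SD, n = 4) to 96.7 ± 4.73 CPM in WT_EE (SD, n = 5) (log2 fold change −0.45; edgeR unadjusted p = 0.0150, adjusted p = 0.473). Casp1, the protease that the Nlrp6 inflammasome activates, fell from 252 ± 43.0 CPM (SD, n = 4) to 196 ± 34.9 CPM (SD, n = 5) (log2 fold change −0.34; edgeR unadjusted p = 0.0298, adjusted p = 0.573). The groups overlapped for both genes. Il1b, a substrate of Casp1, had 8, 5, 0 and 5 counts in WT_SE mice 1, 2, 3 and 5 and 0, 1, 2, 2 and 4 counts in WT_EE mice 1 to 5 and was called lower (edgeR unadjusted p = 0.0464, adjusted p = 0.641). Pycard, the adaptor between Nlrp6 and Casp1, was not called at 191 ± 17.8 CPM (SD, n = 4) against 165 ± 31.5 CPM (SD, n = 5), and neither was the other substrate Il18 at 52.6 ± 37.0 CPM (SD, n = 4) against 48.4 ± 17.7 CPM (SD, n = 5) (edgeR adjusted p = 0.819 and 0.962).

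Leaving out WT_SE 3 ended the calls of Aim2 (log2 fold change −0.33, edgeR unadjusted p = 0.0866) and Casp1 (−0.25, edgeR unadjusted p = 0.135), and once the library-name ending entered the model both calls were lost as well (Aim2 −0.35, edgeR unadjusted p = 0.116; Casp1 −0.12, edgeR unadjusted p = 0.511), as was that of Il1b (edgeR unadjusted p = 0.0655). The call of Casp1 was also lost without WT_SE 1, WT_EE 2 or WT_EE 4, and that of Il1b without any 1 of 6 mice. The summed level of the list, examined after its values were seen, was 1399 to 1530 CPM in WT_SE and 1234 to 1352 CPM in WT_EE and did not overlap after TMM normalization, but it did overlap when library size alone was used. Without WT_EE 3 the gap between the groups widened from 46.9 to 106 CPM.

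Of the induced target genes 3 of 12 were called (median −0.11). Ptgs2, the inducible prostaglandin synthase, had 1 or 2 counts in every WT_SE mouse and 6 to 15 in the WT_EE mice, and Nos2, the inducible nitric oxide synthase, had 0 or 1 count against 3 to 9. Both were higher in WT_EE without overlap (edgeR unadjusted p = 8.58e-06 and 0.000327). Reg3g, the lectin that followed Slc10a2 as Tlr2 did, was called lower (log2 fold change −1.32; edgeR unadjusted p = 0.0121, adjusted p = 0.457), but its log2 fold change was −0.53 without WT_SE 2 (edgeR unadjusted p = 0.318) and −0.59 with Slc10a2 as a covariate (edgeR unadjusted p = 0.0753), and its call was also lost without WT_SE 3 (−1.11; edgeR unadjusted p = 0.0570). The groups overlapped.

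**Figure D5:**
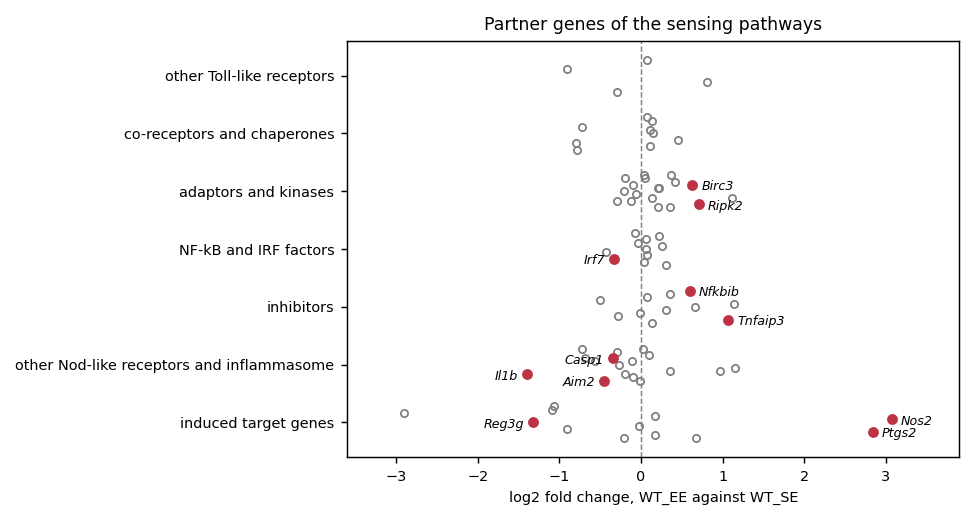
Log2 fold change in WT_EE against WT_SE of the 82 tested pathway genes by list, with the 11 genes at an unadjusted edgeR p under 0.05 filled and named and the others open; vertical offsets within a list carry no value. Called genes lie above 0 among the adaptors and kinases and the inhibitors and below 0 among the other Nod-like receptors and inflammasome genes.

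Markers of cells that carry these receptors were read beside them. Of the 9 macrophage and monocyte genes 0 were called, although all 9 had a negative log2 fold change (median −0.19), and their summed level was 297 to 450 CPM in WT_SE and 247 to 435 CPM in WT_EE. T cell and fibroblast genes were likewise not called (0 of 5 each), nor were the 3 plasma cell genes with counts. Smooth muscle genes were higher in 2 of 6 (Des and Acta2) and endothelial genes in 1 of 4 (Kdr), with summed levels that overlapped between groups (1535 to 1969 and 1505 to 2833 CPM for smooth muscle). Fat genes ranged from 0 to 510 CPM in WT_SE and from 2.31 to 242 CPM in WT_EE, with 1 of 5 (Plin1) lower, and B cell genes were at most 39.1 CPM in WT_SE and 6.93 CPM in WT_EE, with Ms4a1 and Cd79b lower. Ly6g, the 1 neutrophil gene tested, was called higher, with 35 counts in WT_EE 2, 1 to 5 in the other WT_EE mice and 0 to 9 in the WT_SE mice, and of 4 position genes of the Hox clusters Hoxd11 was called lower. Each of these marker calls was lost when 1 mouse was left out: the log2 fold change of Ly6g went from 1.73 to 0.019 without WT_EE 2, that of Plin1 from −1.80 to 0.46 without WT_SE 1, that of Ms4a1 from −2.02 to −1.32 without WT_SE 1, that of Hoxd11 from −0.97 to −0.56 and that of Kdr from 0.41 to 0.25 without WT_SE 2, that of Des from 0.38 to 0.25 without WT_EE 4 and that of Acta2 from 0.36 to 0.22 without WT_EE 2. Cd79b had 3 counts or fewer in every mouse. The part of these cell types in the values of the receptors was not tested.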

How the data were processed

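Libraries were made from polyadenylated RNA with a QuantSeq 3′ forward kit. According to the submitters' processing notes and the study's methods, the authors trimmed reads with fastp (0.20.0), aligned them with STAR (2.7.0f in the notes, another release in the methods) to GRCm38.p6, and counted them with featureCounts (1.6.0) and UMI-tools. The deposited values were counts of unique molecular identifiers per Ensembl gene and mouse, not normalized, with genes without counts left out of the files. Deduplication is meant to remove PCR copies, and at 295535 to 454043 counts per mouse the precision of low genes was limited by counting error, the only error that floors cover. A loss of separate molecules of abundant genes at that step was not tested.

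Symbols and positions came from GENCODE mouse release 21, which named 22248 of 22262 genes, and absent genes were set to 0 counts. Counts were analysed with edgeR (4.0.16, R 4.3.3) by TMM normalization and the quasi-likelihood test with environment as the single term, on the 17441 genes that reached 4 CPM in 1 or more libraries, and p-values were adjusted by Benjamini-Hochberg over all of them. A gene was called at an unadjusted p under 0.05, the limit of the study. Standard errors and 95% intervals of log2 fold changes came from the same fit. Single levels were compared by exact permutation over mice in Python (3.11.15) with numpy (2.4.6). The scripts were tested on simulated counts.

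All members, the direct partners Ly96, Lbp, Tirap, Ticam2, Ripk2, Pycard, Casp1 and Il18, and the called genes of each pathway list (at most 4, with over 3 counts in 1 mouse, or the 2 genes of highest level where none was called) are named. Marker genes are named where called or without counts, and Slc10a2 as a position marker. The members and lists were chosen with earlier results of these data known. Promoter sequences of RefSeq (GRCm38.p6) matched 8 of the 10 members. Alternatives covered filters, scaling, tests (limma 3.58.1, DESeq2 1.42.0), mouse number, library-name ending and each mouse left out, and, chosen after seeing the data, the newer quasi-likelihood test, TMM factors from low genes, the Slc10a2 and fat levels as covariates, and the summed inflammasome list. Libraries of a group differed by more than sampling noise (chi-square per degree of freedom 1.17 to 2.30). The samples are separate mice, and the labels do not say which shared a cage.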

Additional observations from a re-analysis of the deposited data

Results flagged for a closer look

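Among 62 groups of 4 or 5 mice examined for the members and named partner genes, 4 held a mouse that stood apart from the rest by Dixon's criterion, while chance flags about 1 in 20 groups, or 3.1 of 62. None of the 4 was a group of a member. Birc3 was at 104 CPM (30 counts) in WT_EE 2 and at 43.2 to 51.7 CPM in the other WT_EE mice. Tnfaip3 was at 3.37 CPM (1 count) in WT_SE 3 and at 13.6 to 15.6 CPM in the other WT_SE mice. Nos2 was at 27.8 CPM (9 counts) in WT_EE 4 and at 10.4 to 12.9 CPM in the other WT_EE mice. Ticam2 was at 6.74 CPM (2 counts) in WT_SE 3, which is under the floor, and had 0 counts in the other WT_SE mice.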

How the results depend on the processing

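No member tested was called in any of 24 refits, where the smallest unadjusted p of a member was 0.0769 (Ticam1). Stricter limits on the main fit, p under 0.01 and adjusted p under 0.05, could not add a call. edgeR's own filter left out Tlr5, Cd14, Nod1 and Nod2. Nod2 had 1 to 4 counts per mouse, so its direction, given next, is not read as a rise. Tlr4, Cd14, Ticam1, Nod2 and Nlrp6 kept their direction wherever tested, with log2 fold changes of 0.20 to 0.43, 0.21 to 0.63, 0.18 to 0.51, 0.70 to 1.11 and −0.26 to −0.11 when 1 mouse was left out (lowest without WT_SE 2 for Tlr4, WT_EE 1 for Cd14 and WT_SE 3 for Ticam1). The others, whose log2 fold changes lay between −0.25 and 0.01, changed sign: Tlr3 was at −0.0076 with DESeq2 size factors, −0.050 with upper quartile scaling, −0.023 with the DESeq2 test, −0.014 with TMM from low genes and −0.035 with the fat covariate. Myd88 was at −0.030 with upper quartile scaling (CPM difference −0.134), −0.11 with the Slc10a2 covariate and −0.0097 with the fat covariate. Tlr2 was at 0.011 with limma-voom, 0.0081 with L2 libraries alone and 0.15 with the Slc10a2 covariate. Tlr5 was at 0.030 with limma-voom, 0.28 with the Slc10a2 covariate and 0.034 with the fat covariate. Irf7 was at 0.011 with a term for the library-name ending and 0.024 with L2 libraries alone. With 1 mouse left out, log2 fold changes ran from −0.52 to 0.27 (Tlr2), −0.14 to 0.25 (Tlr3), −0.52 to 0.31 (Tlr5), −0.071 to 0.12 (Myd88) and −0.31 to 0.13 (Nod1), and CPM differences from −13.7 to 3.28, −6.76 to 7.97, −3.11 to 0.597, −3.02 to 6.94 and −4.98 to 1.38 for the same genes. The cause was not tested.

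The 11 called pathway genes became 5 with edgeR's own filter, 6 with DESeq2, 7 with a term for the library-name ending, 7 with L2 libraries alone, 7 with the Slc10a2 covariate, 2 at p under 0.01 and 1 after adjustment, and 8 to 13 with 1 mouse left out. The 1334 called genes became 804, 643, 688 and 680 under the first 4 of these, 410 at p under 0.01 and 7 after adjustment, and 899 (without WT_SE 3) to 1581 with 1 mouse left out. Members under 0.05 in the exact permutation test numbered 1 (Nod2), 2 with upper quartile scaling (Nod2 and Nlrp6), and 0 or 1 with 1 mouse left out. Without WT_EE 3 that member was Nlrp6 (exact permutation test, two-sided, unadjusted p = 0.0286). The other WT_EE mice, at 134 to 160 CPM of Nlrp6, all lay below the lowest WT_SE mouse at 172 CPM. The gap between the groups in the summed inflammasome list, 46.9 CPM, was −4.51 CPM with library size alone and up to 106 CPM with 1 mouse left out (WT_EE 3). The number of neighbouring levels that differed, 4, was 3 with any mouse left out.

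Mouse numbers did not pair the samples: deviations of same-numbered mice correlated at −0.02, 0.05, 0.11 and 0.13 for numbers 1, 2, 3 and 5 over 8493 genes. With the number as a replicate block, 0 members and 1149 genes were called, the calls of Casp1 (log2 fold change −0.28), Irf7 (−0.26) and Il1b (−1.41) were lost, and Tlr3 was at −0.059 and Tlr5 at 0.22. Depth limited Tlr5 and Nod2 most, with 2 and 1 of 9 mice above 3 counts.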
